A study of Mus musculus with 7 samples.

Results

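Lrat and 8 further genes that take up, store, oxidise, break down or sense vitamin A were described in mouse spleen. The 9 genes were a named list, Stra6, Lrat, Rdh10, Dhrs3, Aldh1a1, Aldh1a2, Cyp26b1, Rara and Rarb, out of 55414 genes in the count table. All 9 passed the low count filter that left 16089 genes for testing. Lrat heads the list and was chosen by its count difference between these same libraries, and the others are listed for their roles in the same pathway. Differences between the genotypes are therefore given for these 9 genes as a description. Where the fit over all genes called one of them, the call restates that choice and supports nothing.

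The knockout libraries, 4 in number, came from spleens of mice labelled Fpr2KO, in which Fpr2, a receptor gene of myeloid cells for formylated peptides, is deleted. The other 3 libraries came from wild-type spleens (WT) whose genotype is labelled C57BL/6N. The sources used here do not give the age or sex of the mice, the background of the Fpr2KO mice or any pooling of animals, and they name no treatment. Polyadenylated RNA was sequenced and counted per gene, with 14968605 to 18692809 counts per library. Fpr2 itself followed the labels, with no read in any Fpr2KO library and 29.4 to 36.0 TMM-scaled CPM in WT (CPM is the count divided by the scaled library size, times 1e6). Markers of other cells differed between libraries. Erythroid marker genes varied in both groups, pancreatic acinar genes were high in Fpr2KO replicates 1 and 2, and fat cell genes were high in WT replicate 3.

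Vitamin A reaches cells as retinol bound to a carrier protein. Inside the cell it is either esterified for storage or oxidised in 2 steps, to retinal and then to retinoic acid, which is later broken down by cytochromes of the CYP26 family. Retinoic acid acts through nuclear receptors that bind DNA as pairs of an RAR with an RXR. In immune tissue it is known for directing lymphocytes to the gut and for its part in the development of splenic dendritic cells.

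Compared per length of transcript, Aldh1a1, Rara, Rdh10 and Dhrs3 had the highest levels of the 9 genes. In TPM, a level scaled for exon length and library, the means over 7 libraries were 43.1 for Aldh1a1, 22.9 for Rara, 20.6 for Rdh10 and 19.6 for Dhrs3. Lrat followed at 5.5 TPM, Stra6 at 2.98, Aldh1a2 at 2.05, Cyp26b1 at 1.19 and Rarb at 0.782. Only the step between Dhrs3 and Lrat was free of overlap, with at least 15.5 TPM in every library for Dhrs3 and at most 8.05 for Lrat. Each other pair of neighbours in this order had overlapping ranges, although Lrat lay above Stra6 in all 7 libraries. Aldh1a1 and Aldh1a2, enzymes of the same step, thus differed widely in level.

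**Figure D1:**
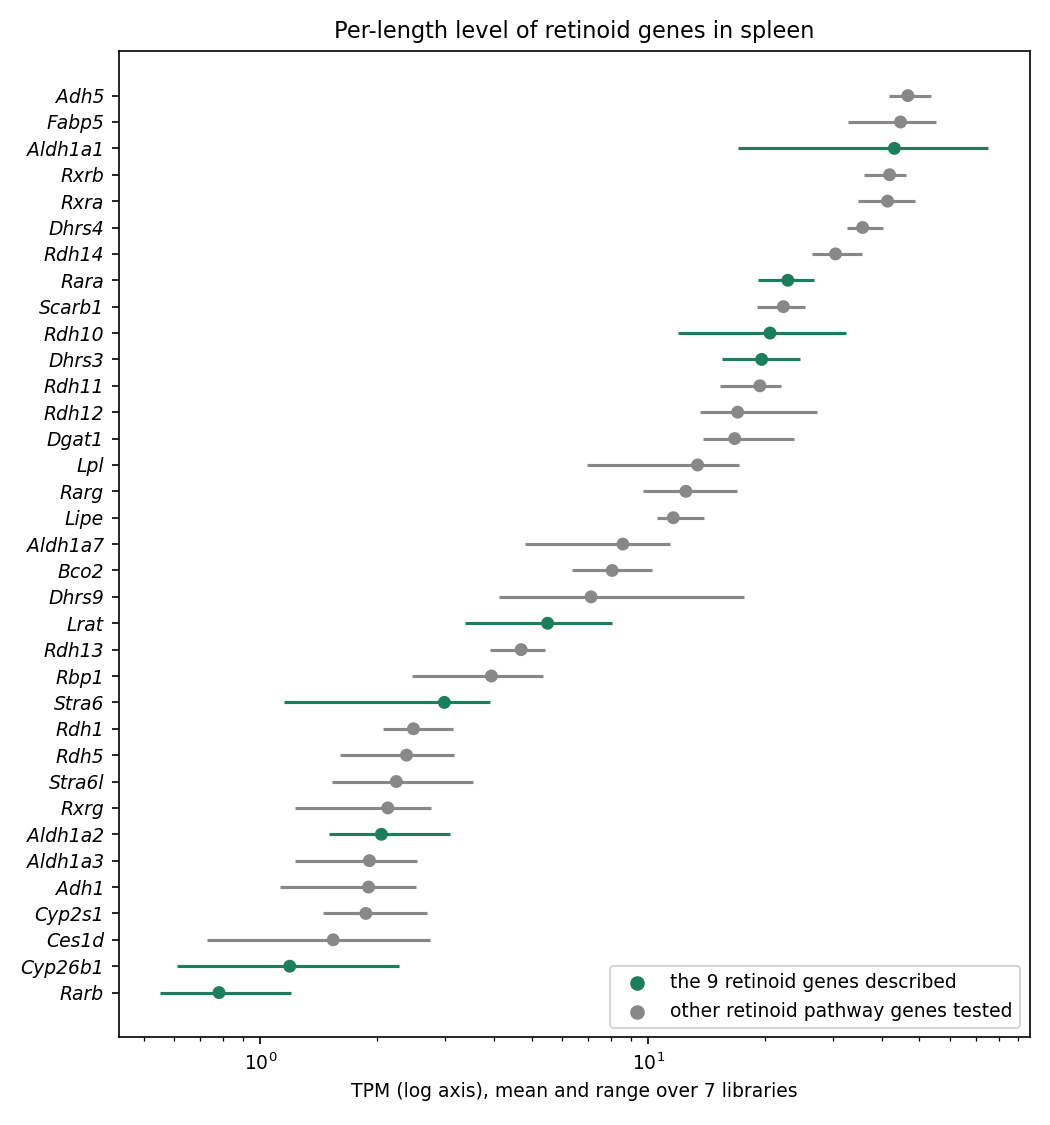
Level per length (TPM, log axis) of the 9 retinoid genes and of the 26 other tested pathway genes, as mean (point) and range (line) over the 7 libraries. Aldh1a1 spans 17.0 to 75.3 TPM, the widest range of the 9 in absolute terms, and Rarb is lowest with a mean of 0.782 TPM.

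Stra6 encodes the membrane receptor through which cells take retinol from its carrier. It had 9.48, 5.58, 6.52 and 8.76 CPM in Fpr2KO replicates 1 to 4, and 6.64, 3.34 and 9.72 CPM in WT replicates 1 to 3. The groups overlapped fully, since the WT libraries held both the lowest and the highest value. The fitted log2 fold change, Fpr2KO minus WT, was 0.20 (SE 0.34). Leaving out WT replicate 2 gave -0.11, and leaving out WT replicate 3 gave 0.60. Stra6 lies on chromosome 9 (58063788 to 58153996, plus strand; positions here are on GRCm38), where it overlaps Ccdc33 on the opposite strand with no shared exonic base.

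Lrat encodes lecithin:retinol acyltransferase, the enzyme that makes the storage form, retinyl ester, and is known best from liver stellate cells and the retinal pigment epithelium. Its counts were 272, 221, 282 and 274 reads in the Fpr2KO libraries, against 108, 138 and 147 in WT. Scaled for depth these were 16.0, 11.9, 16.7 and 14.3 CPM in Fpr2KO, against 7.24, 9.04 and 9.05 CPM in WT. Every Fpr2KO library thus lay above every WT library, and the nearest were Fpr2KO replicate 2 at 11.9 and WT replicate 3 at 9.05 CPM. The means were 14.7 ± 2.16 CPM in Fpr2KO (SD, n = 4) and 8.44 ± 1.04 CPM in WT (SD, n = 3), a ratio of 1.74 and a fitted log2 fold change of 0.80 (SE 0.16). Among the 9 genes, 1 did not overlap between the groups, with Fpr2KO above WT, against 5.91% of all tested genes in either direction and 2.73% with Fpr2KO above WT. Since this difference put Lrat on the list, nothing is read from that count.

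In the fit over all genes with edgeR's quasi-likelihood test, 0 of the 9 genes were called at an adjusted p under 0.05, while 0.0373% of all tested genes were. DESeq2 called 1 of the 9, Lrat, and 0.377% of the genes it tested. At an unadjusted p under 0.05, edgeR's test took 1 of the 9, again Lrat, and 4.98% of all genes. As Lrat was chosen by this difference, nothing is read from these counts either. Lrat's log2 fold change was 0.80 (SE 0.16) with all libraries. It was 0.88 (SE 0.18) without the libraries that carry acinar transcripts, Fpr2KO replicates 1 and 2. Leaving out replicate 1 alone gave 0.77, and leaving out replicate 2 alone gave 0.89. The part of acinar transcripts in Lrat's difference was not tested.

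Lrat lies on chromosome 3 (82892579 to 82903973, minus strand) and shares no exonic base with the antisense gene Rbm46os that overlaps it. Its promoter is shown because Lrat is the gene on which the comparison turns. The sequence, from RefSeq (GRCm38.p6), is the 250 bases before the annotated start, chr3:82903975-82904224, read 5′ to 3′ on the minus strand.
Lrat: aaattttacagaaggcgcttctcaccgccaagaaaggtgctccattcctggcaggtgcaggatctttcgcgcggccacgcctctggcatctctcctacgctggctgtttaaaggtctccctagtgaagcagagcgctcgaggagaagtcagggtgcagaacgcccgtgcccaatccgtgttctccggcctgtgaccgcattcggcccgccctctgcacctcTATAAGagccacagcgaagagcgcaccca
Capitals mark the TATA box match TATAAG, which begins 29 bases before the start. TATAAA or TATAAG, on either strand, occurs in 18.8% of all 32851 RefSeq promoter windows, each 250 bases before to 50 after a start.

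Marker lists of 3 cell types separated the groups in the same libraries as Lrat, the endothelial list only by its score and not by its sum. No marker in them was called by edgeR. NK cell markers summed to 165 to 184 CPM in Fpr2KO and 147 to 155 CPM in WT, with 5 of 6 genes fitted higher and none at 0 in any library. Neutrophil markers summed to 1275 to 2556 CPM in Fpr2KO and 3095 to 4315 CPM in WT, with 8 of 8 lower and none at 0. These sums leaned on S100a9, at 540 to 998 CPM in Fpr2KO and 1422 to 1744 CPM in WT, and on S100a8. Both of these, Ly6g and Mmp9 did not overlap between the groups, while Camp, Ngp, Ltf and Cxcr2 did. Endothelial markers had 6 of 7 genes fitted lower, with sums of 508 to 564 CPM in Fpr2KO and 540 to 666 CPM in WT, and none at 0. The sums overlapped, while the mean centred log2 CPM of those 7 genes was -0.27 to -0.04 in Fpr2KO and 0.09 to 0.23 in WT. This score leaned on Lyve1, a gene of few reads, 4 to 14 in Fpr2KO and 21 to 46 in WT (log2 fold change -1.89). The other endothelial genes had log2 fold changes from -0.29 for Vwf to 0.21 for Tek. In bulk RNA, fewer cells of a type and less RNA per cell cannot be told apart, and the part of these cells in Lrat's difference was not tested. Because the groups separate in both measures, no pooled correlation is given. After subtracting each group's mean, Lrat's correlation over the 7 libraries was -0.70 with the endothelial score, -0.21 with the NK score and 0.83 with the neutrophil score, as a description. For NK cells and neutrophils the sign within groups was opposite to that between them. With 4 Fpr2KO and 3 WT libraries, nothing is read from these signs. The next 5 lists had overlapping sums. Stromal and reticular genes summed to 828 to 1051 CPM in Fpr2KO and 737 to 1006 CPM in WT, and dendritic cell genes to 232 to 298 CPM in Fpr2KO and 196 to 268 CPM in WT. B cell genes summed to 2878 to 3284 CPM in Fpr2KO and 3038 to 3152 CPM in WT, and T cell genes to 423 to 631 CPM in Fpr2KO and 475 to 612 CPM in WT. Acinar genes summed to 33.9 to 696 CPM in Fpr2KO and 22.8 to 46.9 CPM in WT, with 7 of 10 at 0 in some library.

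**Figure D2:**
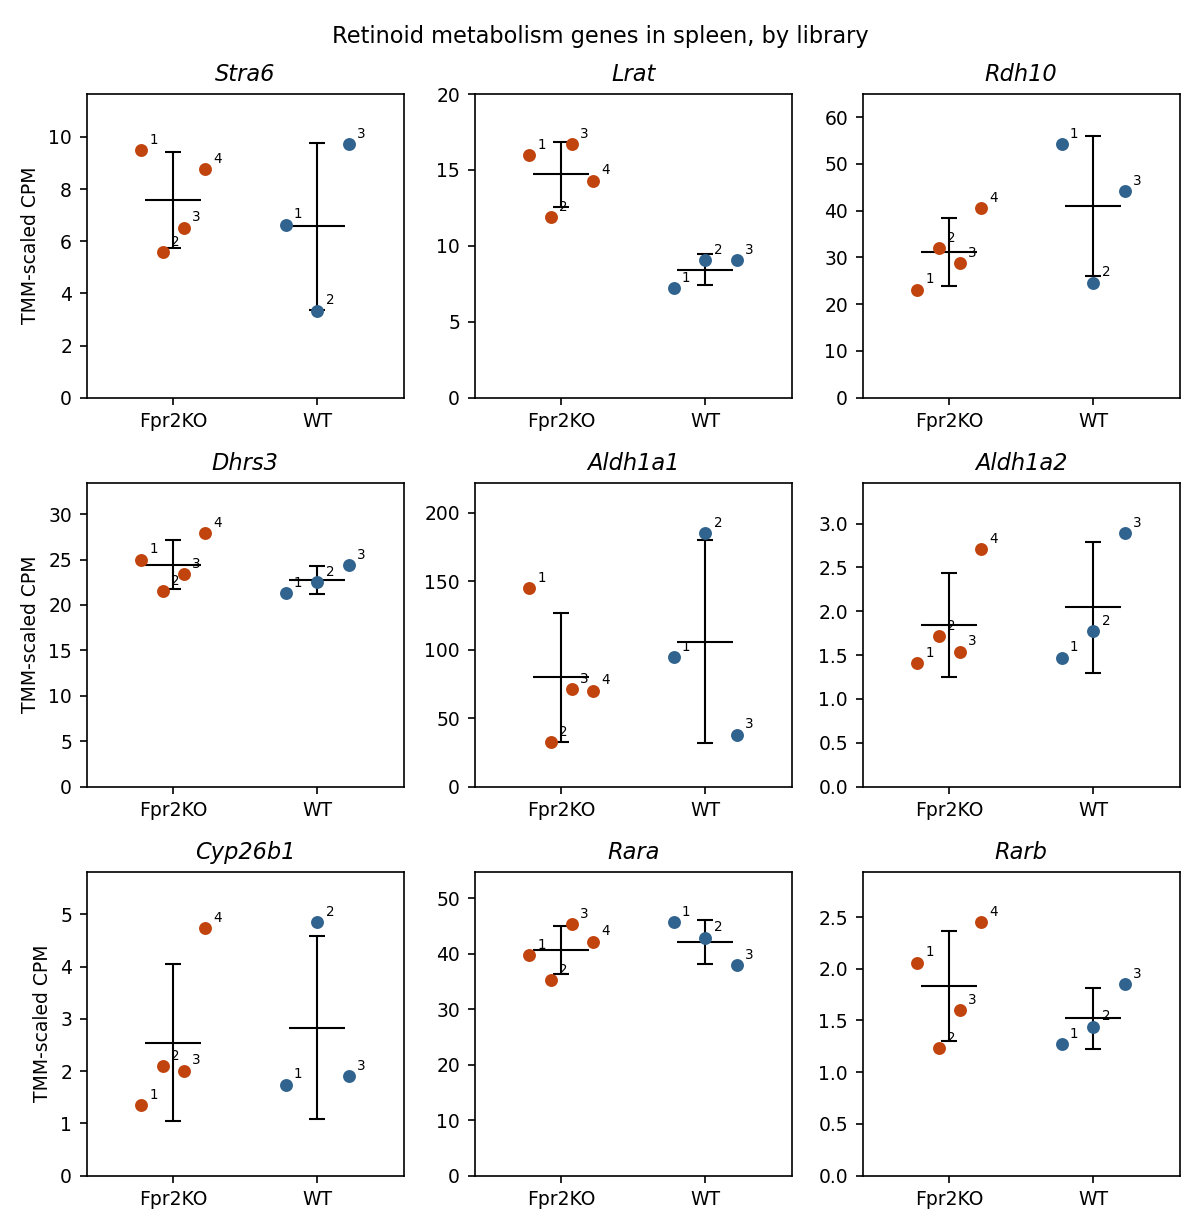
TMM-scaled CPM of the 9 genes in each library, with the replicate number beside each point and the group mean ± SD in black. Only the Lrat panel shows groups that do not overlap, with 11.9 to 16.7 CPM in the 4 Fpr2KO libraries and 7.24 to 9.05 CPM in the 3 WT libraries. Lrat was chosen by this difference, so its lack of overlap follows from the choice. The groups did not overlap in 5.91% of all tested genes, and in 2.73% with Fpr2KO above WT.

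The genes most like Lrat over the 7 libraries were Tmem37, Lrrc75a, Kremen1, Slc27a3 and Thoc1, taken by Pearson correlation of log2 CPM among 12790 candidates whose CPM averaged 1 or more. Their correlations with Lrat ran from 0.957 to 0.978. Because Lrat differed between the groups, this measure favours genes that do so too, and in each of the 5 the groups did not overlap. Tmem37 had 9.07 to 10.5 CPM in Fpr2KO and 7.1 to 8.32 CPM in WT, and Slc27a3, of the fatty acid transport protein family, 6.28 to 8.71 CPM in Fpr2KO and 5.16 to 5.7 CPM in WT. Their log2 fold changes, 0.13 to 0.49, were smaller than Lrat's, and none was called (edgeR adjusted p from 0.867 to 1.0).

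Of the 5 other genes of retinyl ester handling, 4 were tested and 0 called by edgeR, 3 were fitted lower in Fpr2KO and 1 higher. The 3 lower ones did not overlap between the groups, as was the case for 3.18% of all tested genes in that direction. The list was chosen with earlier results of these data known, and these 3 are named for their small p. Nothing is therefore read from that count. Ces1d, a carboxylesterase gene whose enzyme cleaves lipid esters, had 15, 12, 17 and 17 reads in Fpr2KO, against 30, 49 and 39 in WT. These were 0.855 ± 0.152 CPM in Fpr2KO (SD, n = 4) and 2.54 ± 0.612 CPM in WT (SD, n = 3), with no overlap. The log2 fold change, -1.57 (SE 0.28), was not called by edgeR (adjusted p = 0.231). DESeq2 (adjusted p = 0.0132) and edgeR without a low count filter (adjusted p = 0.0452) called it, and the adjusted p over all 17 alternatives ran from 0.0132 to 1.0.

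Dgat1, an acyltransferase known mainly for triglycerides that can also esterify retinol, had 19.6, 15.8, 17.7 and 18.5 CPM in Fpr2KO, against 29.2, 23.9 and 24.1 CPM in WT. Lipe, hormone-sensitive lipase, had 26.0, 24.5, 24.0 and 26.4 CPM in Fpr2KO, against 32.9, 32.8 and 32.3 CPM in WT. Neither group pair overlapped, and the spread within WT was narrow for Lipe. The log2 fold changes were -0.52 (SE 0.12) for Dgat1 and -0.37 (SE 0.09) for Lipe, and neither passed (edgeR adjusted p = 0.479 and 0.48). Over the 17 alternatives Lipe's value stayed between -0.40 and -0.35, that without WT replicate 3 included.

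Lpl, lipoprotein lipase, was the other tested gene of this role and overlapped between the groups at a log2 fold change of 0.16 (SE 0.24). Fat cell markers summed to 10.4 to 16.4 CPM in Fpr2KO and 16.4 to 44.2 CPM in WT, with Plin1, Cidec and Lep at 0 in some libraries, so that the sums met at 16.4 CPM. The most abundant of them, Fabp4, had 9.89 to 14.2 CPM in Fpr2KO and 15.7 to 20.7 CPM in WT. Adipoq differed from it and was high in WT replicate 3 alone. It had 65 reads there, 1 and 4 reads in WT replicates 1 and 2, and 2 to 10 reads in Fpr2KO. The neutrophil sums given above moved in the same direction as Ces1d, Dgat1 and Lipe. The part of either cell type in these values was not tested.

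**Figure D3:**
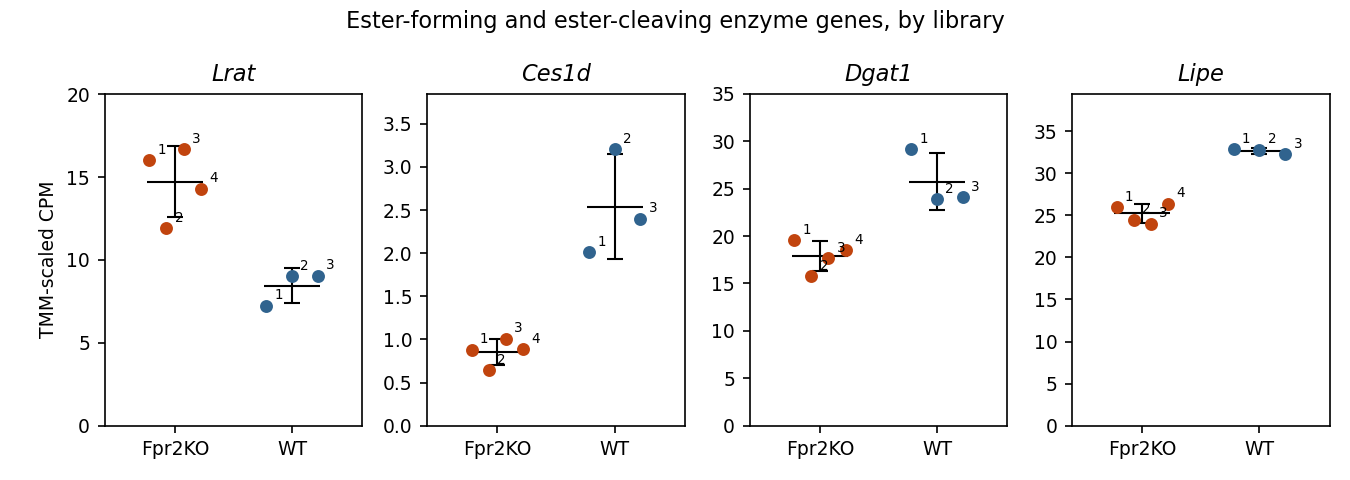
TMM-scaled CPM of the ester-forming gene Lrat, of the ester-cleaving enzyme genes Ces1d and Lipe and of the acyltransferase gene Dgat1 in each library, with the group mean ± SD in black. Fpr2KO libraries lie above WT for Lrat and below WT for the other 3 genes, without overlap in any panel. Lrat was chosen by its difference and the other 3 by their small p, so the lack of overlap follows from the choice. Lpl, the other tested gene of this role, overlapped between the groups and is not shown.

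Rdh10 encodes the retinol dehydrogenase that carries out the first oxidation in many tissues. It had 23.1, 32.0, 28.7 and 40.5 CPM in Fpr2KO, against 54.2, 24.6 and 44.1 CPM in WT. The highest value belonged to WT replicate 1, while WT replicate 2 lay among the lowest, so the groups overlapped. The log2 fold change was -0.40 (SE 0.30), and leaving out 1 library at a time gave -0.66 to -0.14.

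Dhrs3, a retinal reductase that runs the same step backwards and is itself known to be induced by retinoic acid, was the steadiest of the enzymes. It had 25.0, 21.5, 23.4 and 27.9 CPM in Fpr2KO, against 21.3, 22.5 and 24.4 CPM in WT. The highest library was only 1.31 times the lowest, and the log2 fold change was 0.10 (SE 0.12).

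Rdh12, a retinal reductase known from photoreceptors, was the gene of this role on the wider list with the smallest p. It had 17.1, 16.1, 18.5 and 15.7 CPM in Fpr2KO, against 32.6, 29.2 and 18.3 CPM in WT. The groups overlapped through WT replicate 3 alone. Its fitted difference, -0.66 on the log2 scale (SE 0.18), was not called by edgeR (adjusted p = 0.613). Leaving out WT replicate 3 gave -0.87 (SE 0.12, edgeR adjusted p = 0.0463), which is a call. None of the 10 tested genes of this role outside the 9 was called with all libraries. Adh5, the most abundant, averaged 105 ± 5.94 CPM in Fpr2KO (SD, n = 4) and 105 ± 12.0 CPM in WT (SD, n = 3).

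Aldh1a1 encodes a cytosolic enzyme that oxidises retinal to retinoic acid, and it varied far more between libraries than between genotypes. It had 145, 32.7, 71.1 and 70.1 CPM in Fpr2KO, against 94.4, 185 and 38.0 CPM in WT. The highest library, WT replicate 2, was 5.65 times the lowest, Fpr2KO replicate 2, and each group held high and low libraries. The means were 79.7 ± 46.9 CPM in Fpr2KO (SD, n = 4) and 106 ± 73.9 CPM in WT (SD, n = 3). The log2 fold change of -0.41 (SE 0.70) turned to 0.27 when WT replicate 2 was left out. Leaving out Fpr2KO replicate 1 gave -0.85, and leaving out WT replicate 3 gave -0.81.

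This variation followed the erythroid marker genes and ran opposite to the T cell and dendritic cell genes. The mean centred log2 CPM of 7 erythroid genes, among them the globin genes Hba-a1 and Hbb-bs, was 1.15, -1.67, -0.21 and -0.07 in Fpr2KO replicates 1 to 4, and 0.59, 1.39 and -1.17 in WT replicates 1 to 3. Its correlation with Aldh1a1 was r = 0.99 and Spearman's rho = 0.96 (n = 7, exact permutation over 5040 orders, p = 0.000397 and 0.00278). Adjusted over the 108 relations between 9 genes and 12 marker lists, these were p = 0.0429 for r and 0.146 for rho. Within groups, after subtracting each group's mean, r was 0.99, and it was again 0.99 without the libraries at either extreme, Fpr2KO replicate 2 and WT replicate 2. With the T cell list Aldh1a1 had r = -0.95 and with the dendritic cell list r = -0.89 (exact permutation, adjusted p = 0.157 and 0.279). For both lists rho was -0.93, with the same adjusted p as the erythroid rho, 0.146, so the relation was not particular to erythroid genes. The erythroid genes were all 7 fitted lower, their sums were 9412 to 46426 CPM in Fpr2KO and 13859 to 84927 CPM in WT, and none was at 0. Without Fpr2KO replicate 2, and likewise without WT replicate 2, 4 of these 7 genes were fitted higher. Their median log2 fold change was then 0.03 and 0.28, against -0.33 with all libraries. The part of erythroid genes in the level of Aldh1a1 was not tested beyond the correlations given.

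Aldh1a7, a close relative of Aldh1a1 on the same chromosome, was chosen after its values were seen. It had 8.89, 5.53, 8.41 and 6.47 CPM in Fpr2KO, against 6.57, 11.7 and 4.49 CPM in WT, so that WT replicate 2 and Fpr2KO replicate 1 were again the highest. Reads that match both genes could have been left uncounted or assigned to either, so the split between them is uncertain.

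Aldh1a1 starts are annotated at more than 1 place on chromosome 19 (gene 20492715 to 20643465, plus strand). The upstream sequence of the downstream start is shown as an example of a search for short words around GATA, which GATA family regulators of erythroid genes bind. Counts are per gene, so they do not tell which start was used. The window of the other start also holds a match, 23 bases after that start. Any part of these regulators in the level of Aldh1a1 was not tested. It covers chr19:20601718-20601967, 250 bases, from RefSeq (GRCm38.p6), plus strand, 5′ to 3′.
Aldh1a1: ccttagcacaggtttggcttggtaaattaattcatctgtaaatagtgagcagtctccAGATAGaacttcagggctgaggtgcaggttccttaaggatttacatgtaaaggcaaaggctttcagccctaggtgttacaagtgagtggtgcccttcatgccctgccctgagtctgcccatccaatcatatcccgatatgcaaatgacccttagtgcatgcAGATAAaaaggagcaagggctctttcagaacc
Capitals mark the matches to the searched word, which is A or T, then GATA, then A or G, on either strand. At least 1 such word occurs in 29.8% of all promoter windows and in 3 of the 17 windows of these genes. The word is thus common, and a match is a description, not a site.

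Aldh1a2, the retinal dehydrogenase of the embryo and of mesothelium, was counted in few reads, 24, 32, 26 and 52 in Fpr2KO, against 22, 27 and 47 in WT. In CPM these were 1.41, 1.72, 1.54 and 2.71 CPM in Fpr2KO, against 1.47, 1.77 and 2.89 CPM in WT. Fpr2KO replicate 4 and WT replicate 3 stood above the others, with counting intervals (exact Poisson, 95%) of 38.8 to 68.2 and 34.5 to 62.5 reads, which overlap that of Fpr2KO replicate 2, 21.9 to 45.2 reads. The log2 fold change was -0.15 (SE 0.33), and it ran from -0.40 to 0.19 with 1 library left out.

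Of the 12 marker lists, mesothelium had the highest positive correlation with Aldh1a2 (r = 0.76, rho = 0.86, n = 7, exact permutation p = 0.0143 and 0.0238). Neither held after adjustment over the 108 relations (permutation p = 0.309 and 0.429), and r was 0.83 without Fpr2KO replicates 1 and 4, the farthest from the median. Red pulp macrophage markers had a correlation of the same size and opposite sign (r = -0.76, rho = -0.75, n = 7, exact permutation p = 0.052 and 0.0663, adjusted p = 0.55 and 0.716), and r was -0.50 without Fpr2KO replicate 3 and WT replicate 3. Mesothelial genes summed to 16.7 to 51.5 CPM in Fpr2KO and 22.9 to 28.6 CPM in WT, with none of 7 at 0 and the highest sum in Fpr2KO replicate 4. Their part in the level of Aldh1a2 was not tested further.

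Aldh1a3, the third enzyme of this step, is likewise named with its values known. It had 2.35, 4.02, 2.43 and 3.08 CPM in Fpr2KO, against 4.29, 4.39 and 5.29 CPM in WT, without overlap. Its fitted difference, -0.65 on the log2 scale (SE 0.23), was not called by edgeR (adjusted p = 0.885).

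**Figure D4:**
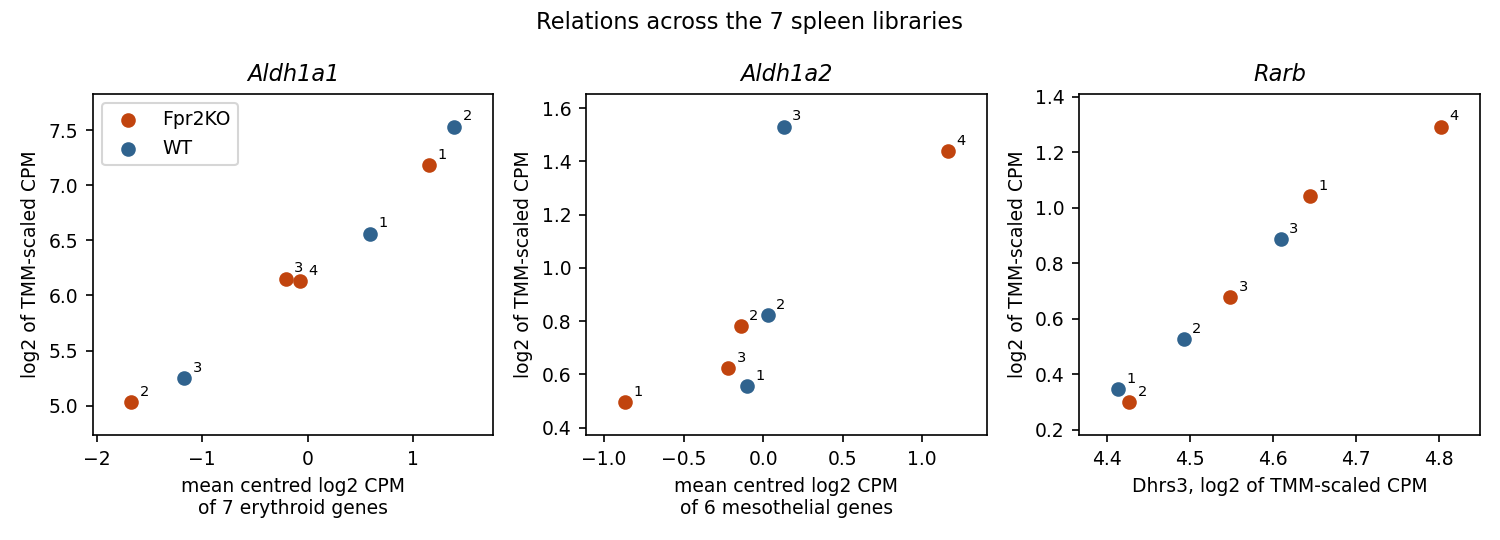
Each point is a library, with its replicate number. Left and middle, log2 of TMM-scaled CPM of Aldh1a1 and Aldh1a2 against the mean centred log2 CPM of 7 erythroid and 6 mesothelial genes (r = 0.99 and 0.76); right, Rarb against Dhrs3 (r = 0.99).

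Cyp26b1 encodes the cytochrome that hydroxylates retinoic acid and so ends its action. It had 23, 39, 34 and 91 reads in Fpr2KO, against 26, 74 and 31 in WT, which were 1.35, 2.09, 2.01 and 4.74 CPM in Fpr2KO and 1.74, 4.85 and 1.91 CPM in WT. A single library stood high in each group, Fpr2KO replicate 4 and WT replicate 2, and the counting intervals of these, 73.3 to 112 and 58.1 to 92.9 reads, lay above those of all other libraries. The log2 fold change was -0.14 (SE 0.51). It changed sign with the library left out, from -0.63 without Fpr2KO replicate 4 to 0.49 without WT replicate 2.

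Rara, the receptor that most blood cells use, was the steadiest of the 9 genes. It had 39.8, 35.3, 45.4 and 42.2 CPM in Fpr2KO, against 45.7, 42.9 and 37.9 CPM in WT. Its highest library was 1.29 times the lowest, and the log2 fold change was -0.05 (SE 0.11).

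Rarb, a receptor gene that is itself a textbook target of retinoic acid, was at the other end of abundance. Its reads numbered 35, 23, 27 and 47 in Fpr2KO, against 19, 22 and 30 in WT. In CPM these were 2.06, 1.23, 1.6 and 2.45 CPM in Fpr2KO, against 1.27, 1.44 and 1.85 CPM in WT, with overlap and a log2 fold change of 0.27 (SE 0.30). Rarb (chromosome 14, 16430839 to 16819156, minus strand) shares 1793 exonic bases with Top2b and 227 with Gm48162, both on the opposite strand. The sources used here do not give the strand setting of the counting, so Rarb's low counts could hold or lack reads of the shared bases.

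The Rarb promoter is shown because it holds the only direct repeat spaced by 5 bases among the promoters of these genes, the element to which RAR and RXR bind. The sequence is the 250 bases before the RefSeq start (GRCm38.p6), chr14:16575477-16575726, minus strand, 5′ to 3′.
Rarb: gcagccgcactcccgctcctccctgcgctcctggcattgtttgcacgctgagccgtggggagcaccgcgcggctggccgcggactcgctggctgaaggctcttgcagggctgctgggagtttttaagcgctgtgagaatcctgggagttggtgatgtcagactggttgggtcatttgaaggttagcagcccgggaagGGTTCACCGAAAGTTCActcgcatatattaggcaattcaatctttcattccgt
Capitals mark the repeat, at chr14:16575513-16575529, which begins 53 bases before the start. The search took a pair of words, each being A or G, then G, then G or T, then TCA, in the same direction with 5 bases between them, on both strands. Such a pair occurs in 0.0974% of all promoter windows, in 1 of the 17 windows of the 8 genes that matched by symbol, and in 1 gene of the wider pathway list, Cyp26a1. The same pair with 2 bases between occurs in 0.268% of windows and in none of the 17. Rdh10 is named only, and no match says only that these letters are not in these windows.

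Rarb and Dhrs3 varied together from library to library. Among the 36 pairs of the 9 genes this pair had the highest correlation (r = 0.99, rho = 0.96, n = 7, exact permutation p = 0.000397 and 0.00278). Adjusted over the 36 pairs the values were p = 0.0143 for r and 0.1 for rho, and r was 1.00 without Fpr2KO replicate 4 and WT replicate 1. The pair was picked after its values were seen. Counting error alone is wide for Rarb, with an interval of 11.4 to 29.7 reads in WT replicate 1 and of 34.5 to 62.5 in Fpr2KO replicate 4. All other pairs had adjusted p of at least 0.803.

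Of the partner receptors, Rxra and Rxrb were abundant and Rxrg was not. Rxra averaged 92.1 ± 7.77 CPM in Fpr2KO (SD, n = 4) and 95.2 ± 1.02 CPM in WT (SD, n = 3). Rxrb averaged 68.3 ± 2.51 CPM in Fpr2KO and 69.9 ± 5.24 CPM in WT. Rxrg, named with its values known, averaged 1.64 ± 0.364 CPM in Fpr2KO and 2.64 ± 0.623 CPM in WT, with overlap (log2 fold change -0.68, SE 0.27, edgeR adjusted p = 0.95). Fabp5, a fatty acid binding protein that can carry retinoic acid, averaged 64.3 ± 5.31 CPM in Fpr2KO and 68.6 ± 17.7 CPM in WT.

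Over the wider pathway list, 26 of 43 genes were tested and 0 were called by edgeR, in either direction. At an unadjusted p under 0.05 edgeR took 6, Ces1d, Dgat1, Lipe, Rdh12, Aldh1a3 and Rxrg, all fitted lower in Fpr2KO, against 4.98% of all tested genes in either direction. In that share, 802 of 16089 genes, 494 were fitted lower. DESeq2 called 1, Ces1d, against 0.377% of the genes it tested. Their median log2 fold change was -0.01, beside -0.00 for all tested genes, and 12 were fitted higher and 14 lower. The split was 14 higher and 12 lower with RLE or upper-quartile scaling, 10 and 16 with limma-voom, and 9 and 17 without WT replicate 1. The groups did not overlap in 4, all of them lower in Fpr2KO, namely Ces1d, Dgat1, Lipe and Aldh1a3. Of all tested genes 3.18% were lower without overlap. The pathway list was chosen with earlier results of these data known, so nothing is read from these counts or their direction.

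Genes known to respond to retinoic acid were described from a list of 10, of which 9 were tested. Of these, 0 were called by edgeR or by DESeq2, against 0.0373% and 0.377% of the genes each tested. An unadjusted edgeR p under 0.05 was found for 0, against 4.98% of all tested genes. All 9 were fitted higher in Fpr2KO, at a median log2 fold change of 0.14, where 48.6% of all tested genes were. The list was chosen with earlier results of these data known. Nothing is therefore read from this share, or from the counts of higher genes with 1 library left out. The median was 0.08 without Fpr2KO replicate 4. Hic1, a transcriptional repressor gene, had 6.06, 5.58, 8.18 and 10.6 CPM in Fpr2KO, against 4.36, 4.52 and 8.06 CPM in WT (log2 fold change 0.43, SE 0.29, edgeR adjusted p = 1.0). Ccr9, a gut-homing chemokine receptor gene, averaged 17.7 ± 2.17 CPM in Fpr2KO and 14.2 ± 3.62 CPM in WT (0.32, SE 0.17). Nrip1, a nuclear receptor corepressor gene, averaged 41.7 ± 2.94 CPM in Fpr2KO and 37.6 ± 2.81 CPM in WT (0.15, SE 0.09).

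The more abundant genes of that list, Cd38, Itgb7, Spic and Tgm2, had log2 fold changes of 0.05, 0.13, 0.05 and 0.17. All 9 overlapped between the groups. With 1 library left out, 8 of 9 were higher without Fpr2KO replicate 1 and without WT replicate 1, 2 or 3. Spic is also a marker of red pulp macrophages, whose markers summed to 2910 to 3835 CPM in Fpr2KO and 2830 to 3684 CPM in WT, with none at 0.

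**Figure D5:**
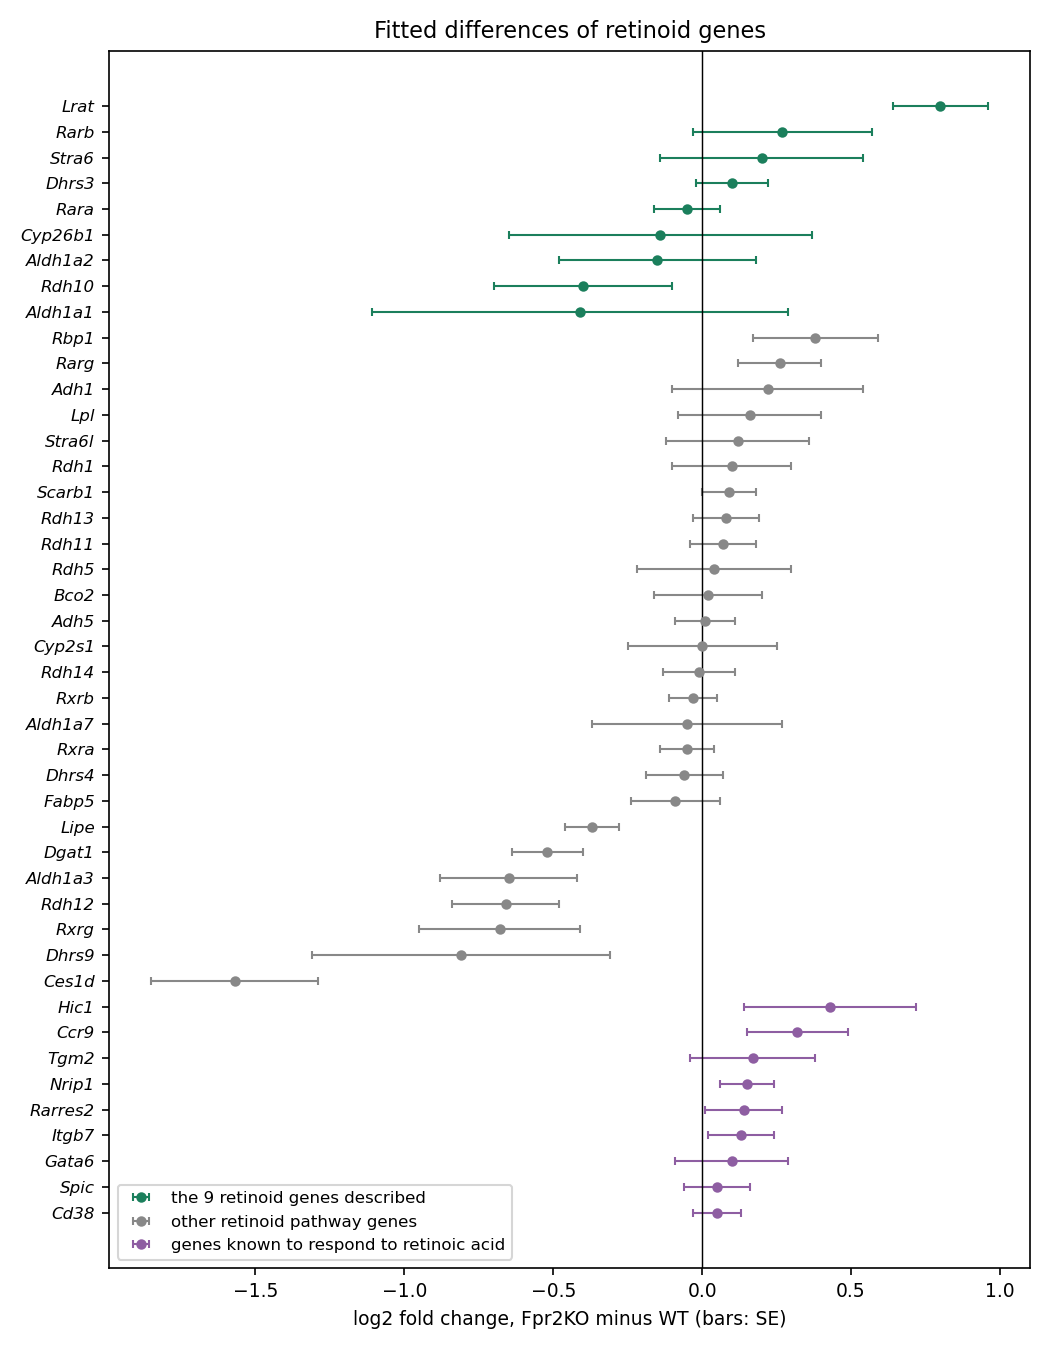
Fitted log2 fold change, Fpr2KO minus WT, with its SE, for the 9 retinoid genes, the 26 other tested pathway genes and the 9 tested genes known to respond to retinoic acid. Lrat is highest at 0.80 and Ces1d lowest at -1.57, and edgeR called none of the 44, while DESeq2 called Lrat and Ces1d.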

How the data were processed

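The authors deposited raw read counts per Ensembl gene for 7 spleen libraries. The submitters' processing notes name FastQC 0.10.1, HTSeq 0.10.0 and the build mm10 (GRCm38); aligner, annotation release and strand setting are not given in the sources used here. Of 55414 IDs, 52133 matched GENCODE M21 (99.8% of counts) and 3281 did not, so exon lengths may differ from those counted. A floor of 3 counts was 0.156 to 0.201 CPM, and intervals cover counting error only.

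Both genotypes were fitted with edgeR's robust quasi-likelihood test (edgeR 4.0.16, R 4.3.3, TMM, filterByExpr). A call is an adjusted p (Benjamini-Hochberg, 16089 genes) under 0.05. SE is the log2 fold change over the root of F. TPM used union exon lengths and scaled CPM used TMM factors. This fit was first tested on simulated counts. Correlations used log2 CPM (prior count 2).

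The members and lists were chosen with earlier results of these data known. Named were the 9 genes, Fpr2, from the pathway and response lists any called gene, the 4 most abundant per length and the 4 with the smallest p, and the 5 genes most like Lrat. Others are said to be chosen after their values were seen. Marker lists covered stromal, mesothelial, endothelial, dendritic, B, T, NK, red pulp macrophage, neutrophil, erythroid, acinar and fat cells. The fit was repeated with DESeq2 1.42.0 and limma-voom (limma 3.58.1), with RLE or upper-quartile factors, no filter or 1 CPM in 3 libraries, a replicate block, no robust estimation, and library sizes that leave out mitochondrial, immunoglobulin and haemoglobin genes. It was also repeated without each library and without Fpr2KO replicates 1 and 2 together. The labels do not say that replicates were separate animals, so a p-value covers the spread of these libraries, which may be technical.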

Additional observations from a re-analysis of the deposited data

Results flagged for a closer look

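In the 4 Fpr2KO libraries, 2 of the 44 genes looked at had a library far from the others by Dixon's criterion, which flags about 5% of groups by chance. Rxra had 104 CPM in Fpr2KO replicate 4, while the other Fpr2KO libraries had 87.5 to 88.7 CPM. Itgb7, an integrin chain gene, had 120 CPM in Fpr2KO replicate 1, while the other Fpr2KO libraries had 155 to 162 CPM. None of the 9 retinoid genes stood out in this way, and the 3 WT libraries were too few for this check.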

How the results depend on the processing

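Lrat's log2 fold change of 0.80 kept its direction in all 17 alternatives, from 0.70 to 0.89 with 1 library left out, and DESeq2 alone called it (adjusted p = 0.00646). The adjusted p was between 0.0522 and 1.0 in the others. Lrat was chosen by this difference, so neither its steady direction nor that call supports it. Genes called over the whole table numbered 6, and 57 with DESeq2, 21 without a low count filter, 2 with the replicate block, and 5 to 15 with 1 library left out (10 without WT replicate 1, 15 without WT replicate 3). Of the 9 genes, 0 were called, 1 with DESeq2 (Lrat), and 0 without both Fpr2KO replicates 1 and 2. Of the pathway and response genes, 0 were called, 1 with DESeq2 and 1 without a low count filter (Ces1d both times), and 0 to 1 with 1 library left out (Rdh12, without WT replicate 3). The cause of these changes was not tested. Same-numbered libraries had deviations correlated at 0.08, -0.43 and -0.07, and differently numbered libraries at -0.44 to 0.44. These values show no pairing by replicate number but cannot exclude it. With the replicate block Lrat was at 0.81 (adjusted p = 1.0) and the median of the 9 response genes at 0.08, against 0.14 without it. Stra6, Aldh1a1, Aldh1a2, Cyp26b1 and Rara changed sign under at least 1 alternative, and Rdh10, Dhrs3 and Rarb under none of the 17. Depth limits Rarb, Aldh1a2 and Cyp26b1 most, at 19 to 91 reads a library.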

Other observations

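Of the 43 other pathway genes, 17 were too low to be tested, and Rdh7 and Adh4 had no read in any library. Rbp4, the serum carrier of retinol that liver secretes, had 1, 4, 2 and 8 reads in Fpr2KO and 1, 4 and 5 reads in WT. Cyp26a1, the relative of Cyp26b1 with a direct repeat in its promoter, had 5, 2, 2 and 1 reads in Fpr2KO and 2, 2 and 5 reads in WT. Dhrs9, a short-chain dehydrogenase gene that passed the filter, had 30.3 CPM in WT replicate 1 and 6.6 to 14.0 CPM in the other 6 libraries. These genes were chosen after their values were seen.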
